A study of Mus musculus with 80 samples.

Results

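Drd1 neurons of the mouse striatum were compared by their level of Pdyn, the gene of prodynorphin. A cell was called Pdyn-positive when its Pdyn level was above 1 TPM (a transcript level corrected for gene length and scaled to a fixed total in each cell) and Pdyn-negative when it was at most 1 TPM. Of the 80 cells of the series, 40 carried the label Drd1. Well D04 of plate FACS051_5 was left out by the rule, and well B02 of plate FACS086_4 because only 648 genes were above 1 TPM there, against a minimum of 2000. This left 38 cells, of which 22 were Pdyn-positive and 16 were Pdyn-negative.

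Each sample was the cDNA of 1 cell. The cells came from the dorsomedial striatum of adult mice heterozygous for both Drd1a-TdTomato and Drd2-EGFP, 2 reporter transgenes carried on bacterial artificial chromosomes, so that Pdyn-positive and Pdyn-negative cells shared the same genotype. FACS sorted single TdTomato cells near an injected dye into plates, and Pdyn played no part in the sorting. Plate FACS051_5 held 8 Pdyn-positive and 9 Pdyn-negative cells, plate FACS086_4 held 13 and 7, and plate FACS086_9 held 1 Pdyn-positive cell. The labels name no animal, so the cells of a group are not replicates, each group counts as 1 sample, and no test was made. The depth of the single libraries cannot be read from TPM and is unknown here.

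Medium spiny neurons (MSN) are the GABA-releasing projection neurons of the striatum. Those that express the D1 dopamine receptor form the direct pathway and release the tachykinin substance P, made from Tac1, together with dynorphins, which are cut from prodynorphin and act mainly on the kappa opioid receptor. Transcription of Pdyn in these neurons is known to follow dopamine, cAMP and CREB signalling, and dynorphin is known to be richer in striosomes, small compartments embedded in the striatal matrix.

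Pdyn (chr2:129686565-129699844, GRCm38) set the groups, so its levels are a description. In the Pdyn-positive cells Pdyn ran from 5.01 to 750 TPM with a median of 230 TPM. In the Pdyn-negative cells 11 were listed at 0 and 5 lay above 0, with a highest value of 0.967 TPM. The last cell inside the limit had 5.01 TPM and the next 16.8 TPM, whereas the last outside had 0.967 TPM and the next 0.794 TPM, so no cell lay between 0.967 and 5.01 TPM. The Pdyn-positive cells made up 57.9% of the 38 cells (exact Clopper-Pearson 95% interval 40.8% to 73.7%, for counting error only). Within the plates the share was 47.1% on FACS051_5 (22.98% to 72.2%) and 65.0% on FACS086_4 (40.8% to 84.6%), and these intervals overlap. Among the 40 cells labelled Drd2, which should lack Pdyn, 2 were above 1 TPM (5.0%), and the highest reached 1.32 TPM. The median number of genes found per cell was 5777 in the Drd1 cells kept and 4946 in the Drd2 cells.

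The number of genes found, that is of genes above 1 TPM in a cell, was not lower in the Pdyn-negative cells. It ran from 2806 to 8657 with a median of 6303 in the Pdyn-negative cells, and from 2829 to 8549 with a median of 5468.5 in the Pdyn-positive cells. The pooled ranges overlapped almost entirely. On FACS051_5 the medians were 6588 in Pdyn-negative and 4926 in Pdyn-positive cells, and on FACS086_4 they were 6028 and 5714. The overlap was smaller on FACS051_5, where the highest Pdyn-positive cell had 6154 genes, below the Pdyn-negative median. TdTomato fluorescence at sorting, a measure the rule did not use, differed in opposite directions on the 2 plates. On FACS051_5 it was lower in the Pdyn-positive cells (median 1874.5, range 1185 to 2358 arbitrary units) than in the Pdyn-negative cells (median 2417, range 1649 to 2726). On FACS086_4 it was higher in the Pdyn-positive cells (median 3695, range 2487 to 4451) than in the Pdyn-negative cells (median 3160, range 2956 to 3724). EGFP fluorescence was low in both groups, with pooled medians of 52 in Pdyn-positive and 49 arbitrary units in Pdyn-negative cells and a highest value of 148. Within the plates the Pdyn-positive medians were the lower ones, 26 against 35 on FACS051_5 and 63 against 95 on FACS086_4.

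**Figure D1:**
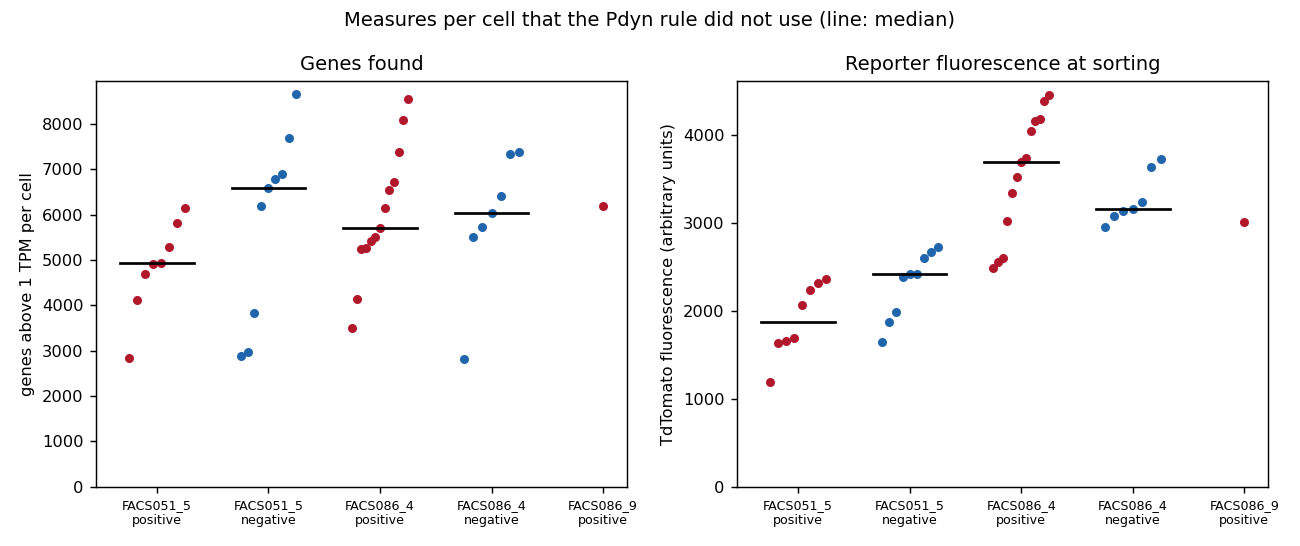
Genes above 1 TPM per cell (left) and TdTomato fluorescence in arbitrary units (right) for each cell, by plate and Pdyn group, where each point is 1 cell and each line a median. The Pdyn-negative cells have medians of 6588 and 6028 genes on the 2 large plates, against 4926 and 5714 in the Pdyn-positive cells, and the order of the fluorescence medians turns between the plates.

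Both groups bore the markers of Drd1 neurons. Drd1 (chr13:54051183-54055705), the D1 dopamine receptor, had a median of 170 TPM in the Pdyn-positive cells (0 to 370) and of 248 TPM in the Pdyn-negative cells (4.02 to 501). Its log2 fold, taken here and below as log2 of the mean TPM plus 1 of the Pdyn-positive cells over the mean TPM plus 1 of the Pdyn-negative cells, was -0.28 with all cells pooled, -0.56 within FACS051_5 and 0.15 within FACS086_4. The 2 groups overlapped on both plates. The libraries of 2 cells went against the label: the Pdyn-positive cell in well B07 of FACS051_5 was listed at 0 for Drd1 with Pdyn at 366 TPM, and the Pdyn-negative cell in well B12 of that plate had 4.02 TPM of Drd1. Drd2 was listed at 0 in all Pdyn-positive cells and reached 5.74 TPM in the Pdyn-negative cells, against a mean of 52.0 TPM in the cells labelled Drd2. That highest value belonged to well C06 of FACS051_5, a Pdyn-negative cell that also held 3676 TPM of Penk, the enkephalin precursor typical of D2 neurons, with 297 TPM of Drd1. The counts are given below with and without these 3 cells, as are the folds of named genes that they moved most.

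Genes were compared where they averaged at least 10 TPM over the 38 cells, which 7756 genes other than Pdyn did. A gene was taken as past the size rule when its log2 fold was at least 1 in size over all cells and at least 1 with the same sign within both large plates. By this rule 705 genes (9.09% of those compared) were higher and 383 (4.94%) were lower in the Pdyn-positive cells. These are counts past a size and not counts of changed genes. The shares are also the level beside which the counts within lists below are to be read. The median log2 fold of all compared genes was 0.17 with all cells pooled, 0.00 within FACS051_5 and 0.32 within FACS086_4. After rescaling each cell to its upper quartile the median was -0.04 and the counts were 559 higher and 606 lower, so that the larger number of higher genes did not hold under that scaling. Without well C06 the counts were 751 and 375, and without the cells with Drd1 below 10 TPM they were 637 and 432.

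For the genes as a whole, the folds on the 2 plates had little in common. Across the 7756 genes, which are not independent replicates, Pearson's r between the folds on the plates was 0.03 and Spearman's rho 0.04. The sign was shared by 51.3% of the genes. Of the genes at least 1 higher on FACS051_5, 37.0% were also at least 1 higher on FACS086_4, where 32.2% of all compared genes were. Of those at least 1 lower on FACS051_5, 20.4% were also at least 1 lower on FACS086_4, against 16.5% of all. Next, the 20 largest folds per direction on 1 plate were read on the other. They were chosen among genes above 1 TPM in at least 50% of the higher group's cells on the choosing plate. Of those chosen on FACS051_5, 9 higher and 6 lower genes were past 1 in the same direction on FACS086_4. Of 20 genes chosen on FACS086_4, 9 higher and 10 lower ones were past 1 on FACS051_5, where 25.4% of all compared genes were at least 1 higher and 26.4% at least 1 lower. Taken over all genes past 1 on 1 plate, the share past 1 on the other was thus a few percentage points above that of all genes. Among the 20 genes chosen per direction 6 to 10 were past 1, beside 16.5% to 32.2% of all genes. The chosen genes had also passed the share of cells and all genes had not, so these are unlike sets.

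**Figure D2:**
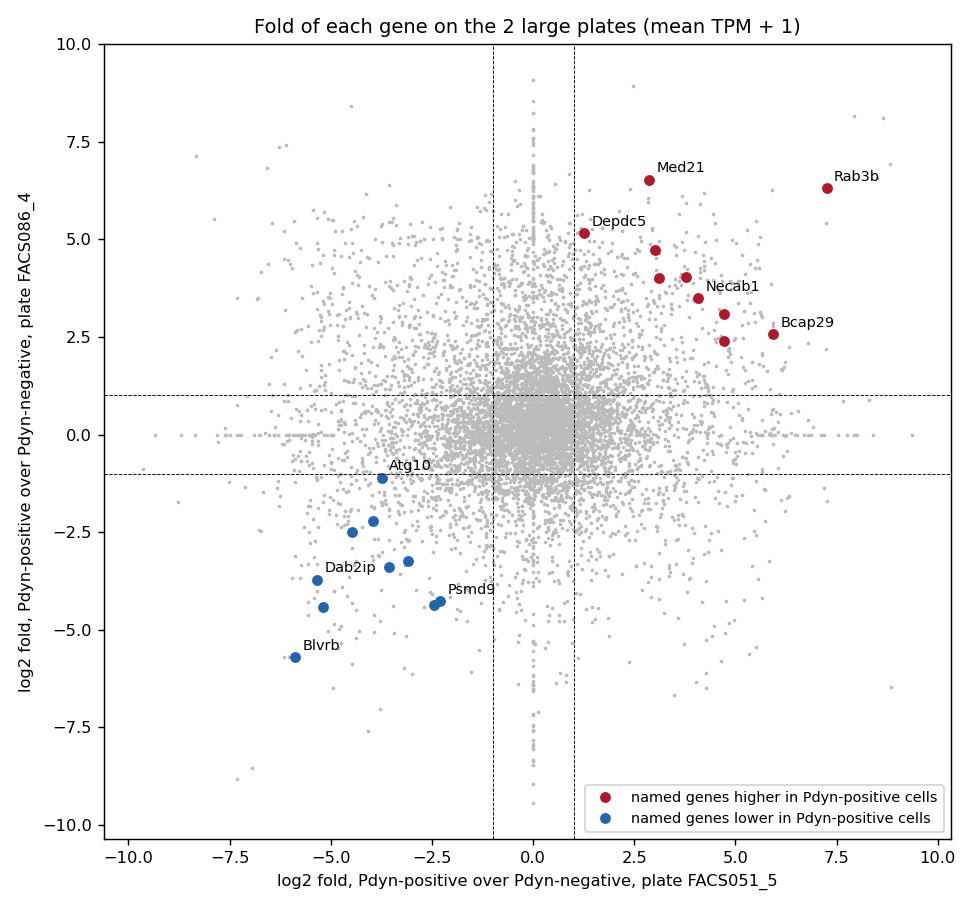
Log2 fold of each compared gene (Pdyn-positive over Pdyn-negative, mean TPM + 1) on plate FACS051_5 (x axis) and on plate FACS086_4 (y axis), where each grey point is 1 gene and dashed lines mark a fold of 1 in size. The cloud has no slope (Pearson's r 0.03), Rab3b lies at the upper right (7.25 and 6.30) and Blvrb at the lower left (-5.88 and -5.71).

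Rab3b (chr4:108879063-108943324), a small GTPase of secretory vesicles, had the largest fold among the named genes higher in Pdyn-positive cells. Its level ran from 0 to 773 TPM with a median of 22.4 TPM in the Pdyn-positive cells, and from 0 to 2.92 TPM with a median of 0 in the Pdyn-negative cells. It was above 1 TPM in 15 of 22 Pdyn-positive cells (68.2%, exact 95% interval 45.1% to 86.1%) and in 1 of 16 Pdyn-negative cells (6.25%, 0.158% to 30.2%). All 15 exceeded the highest Pdyn-negative cell. The same held within the plates. On FACS051_5 7 of 8 Pdyn-positive and 1 of 9 Pdyn-negative cells were above 1 TPM, and on FACS086_4 8 of 13 and 0 of 7 were. The log2 fold was 6.66 (means of 134 and 0.336 TPM), with 7.25 on FACS051_5 and 6.30 on FACS086_4. It was 6.67 without well C06, 6.85 without the cells with Drd1 below 10 TPM, and 6.98 among cells paired by genes found. The pairing did not even out the genes found, with medians of 5508 in 15 Pdyn-positive and 6415 in 15 Pdyn-negative cells. The 1 Pdyn-positive cell of FACS086_9 was listed at 0 for Rab3b. In the cells labelled Drd2 Rab3b was above 1 TPM in 14 of 40 and reached 885 TPM, so it was not limited to Pdyn-positive cells. Rab3b overlaps Gm12736 and 8030443G20Rik in GENCODE M21.

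Rab3b differed among the Pdyn-positive cells themselves. The 15 cells with Rab3b above 1 TPM had 16.8 to 750 TPM of Pdyn (median 259), and the 7 cells without had 5.01 to 233 TPM (median 109). The ranges overlapped. The cells without Rab3b had more genes found (median 6197, range 4130 to 8090) than those with it (median 5288, range 2829 to 8549). The other Rab3 genes differed less, since Rab3a had a fold of 0.58 (means 500 and 333 TPM) and Rab3c of 0.74 (47.0 and 27.8 TPM), and Rab3d had mean levels of 1.08 and 0.464 TPM.

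**Figure D3:**
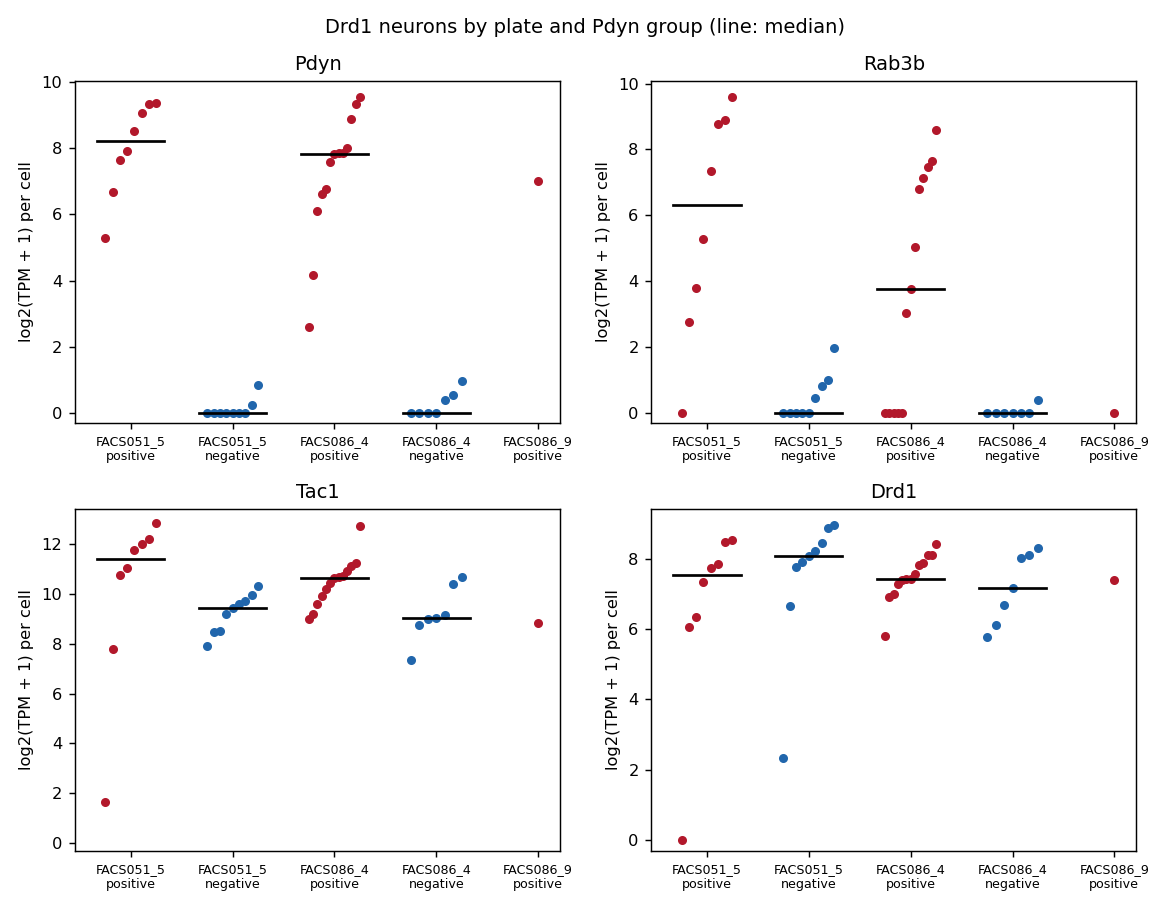
Level of Pdyn, Rab3b, Tac1 and Drd1 in each cell as log2(TPM + 1), by plate and Pdyn group, where each point is 1 cell and each line a median. Pdyn set the groups, Rab3b is near 0 in the Pdyn-negative cells (at most 2.92 TPM) and above 1 TPM in 15 of 22 Pdyn-positive cells, Tac1 is higher but overlaps, and Drd1 overlaps throughout.

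Tac1 (chr6:7554879-7565834), the second peptide precursor of Drd1 neurons, was higher in the Pdyn-positive cells. Its median was 1657 TPM there (2.10 to 7398) and 573 TPM in the Pdyn-negative cells (163 to 1649). On FACS051_5 the medians were 2813 and 682 TPM, and on FACS086_4 they were 1596 and 521 TPM. Of the 22 Pdyn-positive cells 12 lay above the highest Pdyn-negative cell, and 1 lay below the lowest. The log2 fold was 1.63 (means of 2175 and 704 TPM), with 2.14 on FACS051_5 and 1.29 on FACS086_4. It was 1.58 without well C06 and 1.64 without the cells with Drd1 below 10 TPM. As a mean of log2 values it was 1.02 over all cells but 0.78 on FACS051_5, and among cells paired by genes found it was 1.62 over all cells but 0.82 on FACS086_4, so the size rule was not met under these settings.

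The list of 15 genes known from D1 neurons, which holds Drd1 and Tac1, had 11 members at 10 TPM or more, and its median fold was 0.94 (0.71 on FACS051_5 and 1.23 on FACS086_4), beside 0.17 for all compared genes. Tac1, Isl1 and Gprin3 were higher past the size rule and 0 members were lower, beside 9.09% and 4.94% of all compared genes. Isl1, a transcription factor of direct pathway neurons, averaged 110 and 43.3 TPM (fold 1.32) and was above 1 TPM in 14 of 22 and 10 of 16 cells, and without well C06 its fold on FACS051_5 was 0.90. Gprin3 averaged 39.7 and 16.1 TPM (fold 1.25) and was above 1 TPM in 17 of 22 and 7 of 16 cells. Its median was 3.77 TPM in Pdyn-positive and 16.8 TPM in Pdyn-negative cells on FACS051_5, and 40.1 and 0.221 TPM on FACS086_4, so its medians ran opposite ways on the plates. Slc35d3, which helps D1 receptors reach the cell surface, had a fold of 0.93 (0.89 and 1.13 on the plates), and Ebf1, a transcription factor of direct pathway neurons, had 0.94 but -0.43 on FACS051_5.

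The 22 genes shared by MSN in general had a median fold near 0. Of 21 compared, 0 were past the size rule in either direction, and their median fold was -0.08 (-0.14 and -0.06 on the plates). Single members differed more: Kcnab1, a potassium channel subunit, averaged 126 and 204 TPM with folds of -2.12 and 0.71 on the plates, Pde10a, a phosphodiesterase, had a fold of -0.53 (-1.21 on FACS051_5), and Gad2, a GABA-synthesising enzyme, had 0.73 and 0.91 on the plates. Ppp1r1b, which encodes the phosphatase regulator DARPP-32, averaged 1721 TPM in the Pdyn-positive and 1584 TPM in the Pdyn-negative cells. Arpp21, another cAMP-regulated phosphoprotein, averaged 2485 and 2602 TPM. Foxp1, a transcription factor, and Rgs9, a regulator of G protein signalling, had folds of 0.48 and -0.15. Of the 13 genes of D2 neurons 1 was compared, Penk, with a median of 11.3 TPM in Pdyn-positive and 13.6 TPM in Pdyn-negative cells. Its fold of -2.67 rested on well C06 (1.27 without it). The Pdyn-positive mean of 37.4 TPM also leaned on 1 cell. Well A04 of FACS051_5 held 500 TPM, and the next Pdyn-positive cell 63.9 TPM. The bulk of the Pdyn-negative cells thus held as little Penk as the Pdyn-positive cells.

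Striosome genes gave a mixed picture. Of 18 genes 17 were listed and 8 compared, and the median fold was 1.23 (1.92 on FACS051_5 and 0.54 on FACS086_4). Tac1 and Necab1 were higher past the size rule and 0 were lower, beside 9.09% and 4.94% of all compared genes. Necab1 (chr4:14952245-15149794), a neuronal calcium-binding protein, was above 1 TPM in 11 of 22 and 2 of 16 cells, with 0 to 138 TPM (median 1.92) in the Pdyn-positive and 0 to 1.77 TPM (median 0) in the Pdyn-negative cells. Those 11 cells lay above every Pdyn-negative cell, and the fold was 4.01 (4.08 and 3.49 on the plates). The 138 TPM belonged to well B07 of FACS051_5, and without the cells with Drd1 below 10 TPM the fold was 3.53, with 1.67 on that plate. Nnat and Khdrbs3 had folds of 3.44 and 2.12 over all cells but of 0.57 and 0.51 on FACS086_4. Oprm1, the mu opioid receptor that defines striosomes, averaged 1.70 and 1.71 TPM, and Kremen1 averaged 1.39 and 1.45 TPM, both too low to compare. Not all low members were level. Tshz1, with a mean of 8.65 TPM over all kept cells, averaged 13.6 and 1.79 TPM (folds 2.21 and 3.68 on the plates). It was above 1 TPM in 7 of 22 and 1 of 16 cells. Spon1 went the other way, with 0.0285 and 1.25 TPM. Of the 10 matrix genes 9 were compared, 0 were past the size rule, and the median fold was -0.23 (-0.45 and 0.27). Calb1, the calbindin that marks the matrix, had a median of 225 TPM in the Pdyn-positive (11.9 to 920) and of 276 TPM in the Pdyn-negative cells (5.51 to 1016), and the groups overlapped.

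Of the list of D1 neurons called eccentric, 11 of 13 genes were listed and 3 compared. Adarb2 was lower past the size rule (3.38 and 28.8 TPM, fold -2.76), above 1 TPM in 3 of 22 and 4 of 16 cells. Without well C06 its fold was -0.54, and 0.92 on FACS051_5. Tac2, the neurokinin B precursor, was above 1 TPM in 1 cell of each group. It reached 5059 TPM in the Pdyn-negative cell, which was again well C06 of FACS051_5. Otof, Casz1 and Pcdh8 averaged less than 10 TPM. Of 14 neuropeptide genes outside the opioid family 7 were listed and 3 compared, with a median fold of 1.19 (2.14 and 0.00), and Tac1 was the 1 gene past the size rule. Of 7 other opioid peptide and receptor genes Penk was the 1 compared.

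Among 21 genes that cut, store and release peptides 18 were compared. Pam and Rab27b were higher past the size rule, a share near the 9.09% of all compared genes, 0 were lower, and the median fold was 0.21 (0.45 and 0.49 on the plates). Pam, the enzyme that amidates peptides such as substance P, had 0.711 to 387 TPM (median 29.4) in the Pdyn-positive cells and 0.745 to 133 TPM (median 7.92) in the Pdyn-negative cells. Its fold was 1.72 (2.31 and 1.32), although on FACS086_4 the median was lower in the Pdyn-positive (12.8) than in the Pdyn-negative cells (31.97 TPM). Rab27b, a GTPase of dense core vesicle docking, had a fold of 2.998 but was above 1 TPM in 9 of 22 and 6 of 16 cells. Cpe, the carboxypeptidase that trims prohormones, averaged 836 and 616 TPM (fold 0.44), and Pcsk2, a prohormone convertase that cuts prodynorphin, 98.0 and 73.8 TPM (fold 0.40). Pcsk1 was listed at 0 in all Pdyn-negative cells and averaged 5.30 TPM in the Pdyn-positive cells, where only 3 of 22 were above 1 TPM. Oprk1, the kappa receptor for dynorphin, averaged 6.14 and 1.90 TPM and was above 1 TPM in 6 of 22 and 4 of 16 cells.

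The dopamine and cAMP pathway that leads to Pdyn was close to the median of all genes. Of 31 genes 27 were compared, with a median fold of -0.06 (-0.21 and 0.16). Past the size rule 3 were higher and 0 lower, beside 9.09% and 4.94% of all compared genes. The 3 were Pde1c, Pde4d and Prkar2a, which are 2 phosphodiesterases that break down cyclic nucleotides and a regulatory subunit of protein kinase A. Pde1c averaged 33.5 and 5.27 TPM (fold 2.46) and was above 1 TPM in 13 of 22 and 5 of 16 cells. Prkar2a was above 1 TPM in only 5 of 22 and 3 of 16 cells. Adcy5, the main adenylyl cyclase of the striatum, had a fold of -0.26 and Gnal, its stimulating G protein, of 0.53. Among 18 transcription regulators linked to CREB or Pdyn 12 were compared, with a median fold of 0.26 (0.10 and 0.94). Ep300, a CREB coactivator, and Nfkb1, an NF-kappa B subunit, were higher past the size rule and 0 were lower, but Nfkb1 was above 1 TPM in 5 of 22 and 2 of 16 cells. Ep300 met the size rule in 7 of the 14 alternatives tried for single genes, and its fold of 1.54 was 0.90 without the cells with Drd1 below 10 TPM (-2.62 on FACS051_5). Creb1 itself averaged 13.2 and 23.6 TPM, with folds of -3.19 on FACS051_5 and 1.23 on FACS086_4. Kcnip3, which encodes DREAM, a repressor that binds the Pdyn gene, averaged 23.4 and 18.5 TPM, with folds of -1.17 and 1.53.

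Early response genes, which are switched on by neuronal activity and by tissue handling, did not move as 1 group. Of 23 genes 14 were compared, with a median fold of 0.00 (-1.14 on FACS051_5 and 0.28 on FACS086_4). Past the size rule 0 were higher and 2 lower, beside 9.09% and 4.94% of all compared genes. The lower ones were Nr4a3 (4.05 and 28.7 TPM, fold -2.55) and Fosb (3.60 and 20.8 TPM, fold -2.25). Nr4a3 was above 1 TPM in 6 of 22 and 7 of 16 cells, and Fosb in 3 of 22 and 6 of 16. Egr1 averaged 265 and 247 TPM (fold 0.10) and Homer1 199 and 227 TPM (fold -0.19). Fos had a fold of -2.83 on FACS051_5 and 0.68 on FACS086_4, and Arc of -3.49 and 0.65. Homer1 had folds of -1.08 and 0.16 on the plates, and Junb of -1.20 and 0.20, so these genes also turned sign.

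Receptors and channels showed single members past the size rule in both directions. Of 20 glutamate receptor genes 14 were compared, with a median fold of -0.35 (-0.71 and -0.39). Past the rule 0 were higher and 2 lower, beside 9.09% and 4.94% of all compared genes. Gria4, an AMPA receptor subunit lower past the size rule, had medians of 0.107 and 11.3 TPM and a fold of -1.47. The NMDA receptor subunit Grin1 had a fold of -0.98 (167 and 331 TPM) and Gria2, an AMPA subunit, of -0.10.

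Of 14 GABA receptor genes 11 were compared, with a median fold of -0.36 (-0.08 and -0.20). Past the size rule 2 were higher and 1 lower, beside 9.09% and 4.94% of all compared genes. Gabra5 was found in 6 of 22 Pdyn-positive cells (up to 310 TPM) and in 1 of 16 Pdyn-negative cells at 4.82 TPM (fold 4.35, and 3.30 without the cells with Drd1 below 10 TPM). Gabrb1 had a fold of 1.84 but was above 1 TPM in 9 of 22 and 10 of 16 cells, and its median was lower in the Pdyn-positive cells (0.475 and 3.19 TPM). Gabrb2 had a fold of -1.80 (9.74 and 36.4 TPM). Acetylcholine and serotonin receptors had 4 of 16 genes compared, 0 past the size rule and a median fold of 1.27 (0.77 and 2.58). Htr2c, a serotonin receptor gene of this list, had folds of -3.05 and 4.02 on the plates. Of 31 potassium channel genes 22 were compared, 0 were higher and Kcnt1, a sodium-activated potassium channel, was lower, with medians of 5.16 and 43.7 TPM and a fold of -1.34.

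Genes graded across the striatum, by which position can be read, had 11 of 16 members compared and a median fold of 1.13 (0.12 and 0.73). Dlk1 and Fxyd6 were higher past the size rule and 0 were lower, beside 9.09% and 4.94% of all compared genes. Dlk1 and Fxyd6 were, however, above 1 TPM in only 3 and 2 of the 22 Pdyn-positive cells. Without the cells with Drd1 below 10 TPM the fold of Dlk1 was 3.49, and that of Fxyd6 was 2.30 and -0.12 on FACS051_5, which did not meet the rule. Crym, which marks medial and ventral striatum, averaged 257 and 96.6 TPM (folds 2.95 on FACS051_5 and 0.61 on FACS086_4), and Synpr 162 and 144 TPM. Of 38 ribosomal protein genes 2, Rplp0 and Rps24, were higher past the size rule and 0 were lower, with a median fold of 0.08 (0.18 and 0.31), and the 15 mitochondrially encoded genes had 0 past the rule and a median of -0.10 (0.20 and -0.23). With upper quartile scaling the median fold of the cytosolic ribosomal proteins was -0.09 and that of the CREB and Pdyn transcription genes -0.08.

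**Figure D4:**
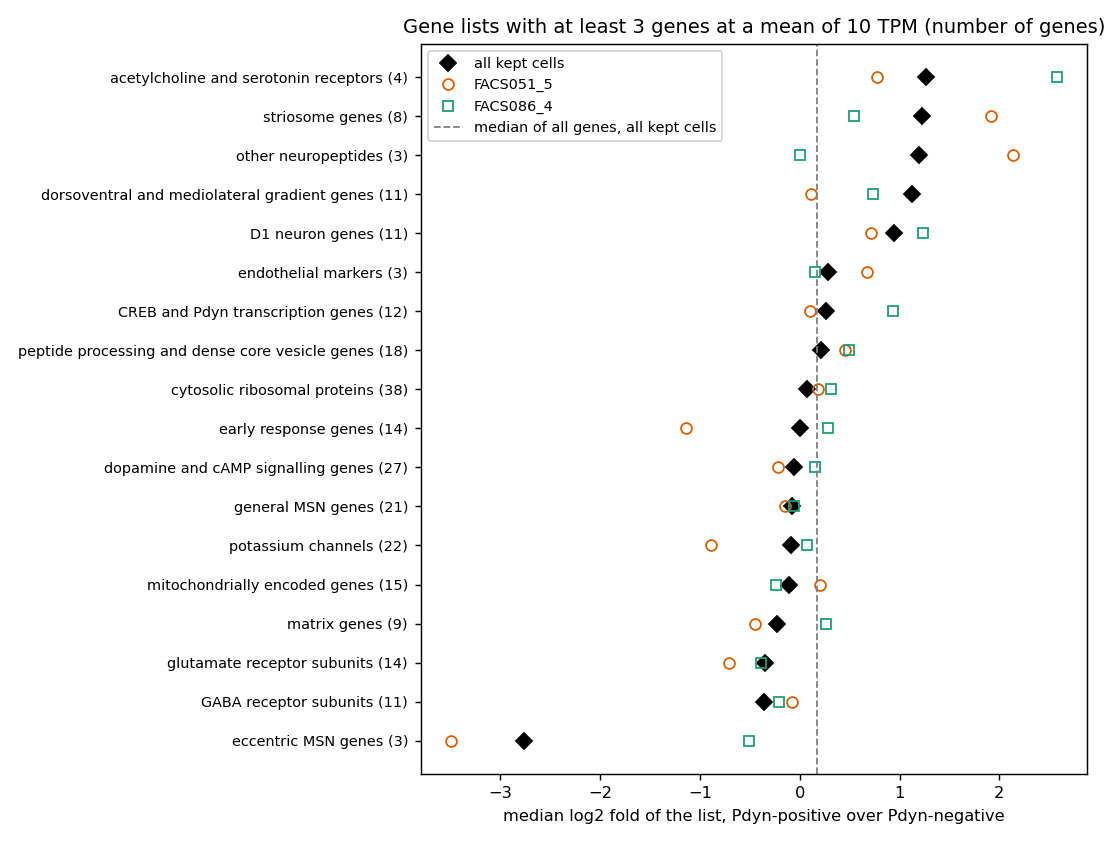
Median log2 fold (Pdyn-positive over Pdyn-negative) of each gene list over all kept cells (diamonds), on FACS051_5 (circles) and on FACS086_4 (squares), with the number of genes compared in brackets and the median of all genes as a dashed line. The D1 neuron genes (0.94) and striosome genes (1.23) lie to the right on both plates, as do the acetylcholine and serotonin receptors (1.27). The general MSN genes (-0.08) lie near 0.

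A second description used the share of cells in which a gene was above 1 TPM, a size rule added after the values were seen. In all, 5 genes were found at a share at least 50 percentage points higher in the Pdyn-positive cells, and 5 at a share at least 50 percentage points lower, in the same direction on both plates (0.0645% of the 7756 genes in each direction). The higher genes were Rab3b, Fabp5, Dpy30, Klhl23 and Ppp1r2, and the lower genes included Arntl, Slc25a10, Mal2 and Blvrb. Ppp1r2 (chr16:31251537-31275277), an inhibitor of protein phosphatase 1, was above 1 TPM in 22 of 22 Pdyn-positive cells and in 8 of 16 Pdyn-negative cells. Its median was 172 TPM (3.55 to 1119) in the former and 2.32 TPM (0.203 to 252) in the latter. The groups overlapped, but on FACS051_5 6 of 9 Pdyn-negative cells were below 1 TPM. The log2 fold was 2.44 (4.11 and 1.55 on the plates) and 2.08 without the cells with Drd1 below 10 TPM.

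Fabp5 (chr3:10012548-10016607), a fatty acid binding protein, was above 1 TPM in 17 of 22 and 4 of 16 cells, with medians of 45.3 TPM (0 to 703) and 0 TPM (0 to 187). Its fold was 3.17 (4.77 and 2.33 on the plates), and with the left-out well D04 among the Pdyn-negative cells it was 0.81, so 1 cell decided its size. Dpy30, a subunit of histone methyltransferase complexes, was also above 1 TPM in 17 of 22 and 4 of 16 cells (fold 1.76), and Klhl23, a kelch-repeat protein, in 14 of 22 and 2 of 16 (fold 2.23).

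Arntl (chr7:113207465-113314126), which encodes the clock transcription factor BMAL1, was lower in the Pdyn-positive cells. It was above 1 TPM in 6 of 22 Pdyn-positive cells (27.3%, exact 95% interval 10.7% to 50.2%) and in 14 of 16 Pdyn-negative cells (87.5%, 61.7% to 98.4%). The level ran from 0 to 91.6 TPM with a median of 0 in the former, and from 0 to 184 TPM with a median of 59.2 TPM in the latter. On FACS051_5 1 of 8 and 8 of 9 cells were above 1 TPM, and on FACS086_4 4 of 13 and 6 of 7 were. Its fold was -2.15 (-3.41 and -1.55), between -3.83 and -1.69 under the 14 alternatives tried for single genes, and past the size rule in each of them. Blvrb (chr7:27447978-27466144), a biliverdin reductase, was listed at 0 in all 22 Pdyn-positive cells (0%, upper limit of the exact interval 15.4%) and was above 1 TPM in 8 of 16 Pdyn-negative cells, up to 193 TPM. In the cells labelled Drd2 it was above 1 TPM in 4 of 40. Mal2, a membrane traffic protein, was above 1 TPM in 9 of 22 and 15 of 16 cells and Slc25a10, the mitochondrial dicarboxylate carrier, in 2 of 22 and 10 of 16, but neither was past the size rule for folds (-0.26 and 0.78 on FACS086_4).

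**Figure D5:**
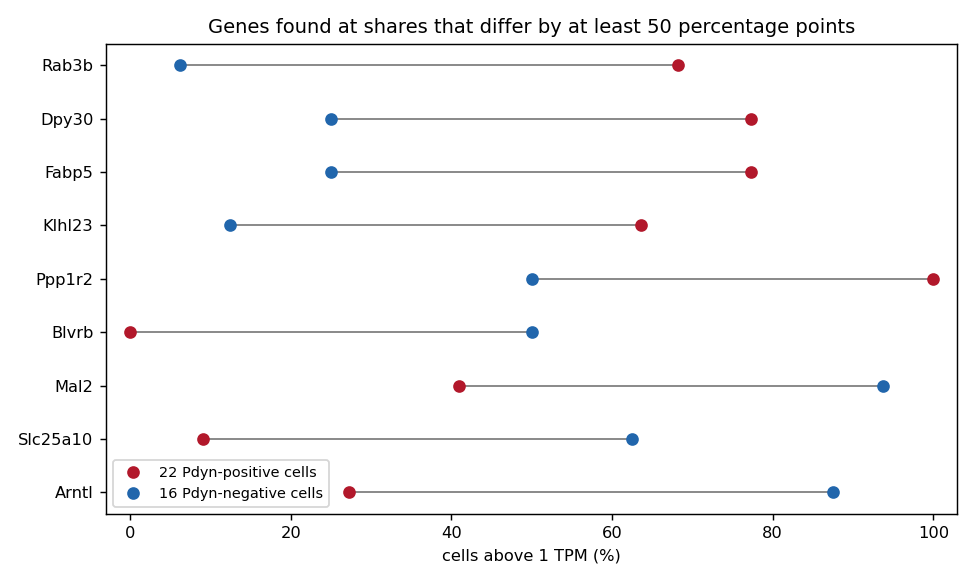
Percentage of the 22 Pdyn-positive and of the 16 Pdyn-negative cells above 1 TPM for 9 genes whose shares differ by at least 50 percentage points in the same direction on both plates, where a line joins the 2 groups of a gene. Rab3b stands at 68.2% and 6.25%, Ppp1r2 at 100% and 50.0%, Arntl at 27.3% and 87.5%.

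The 10 genes with the largest folds in each direction were chosen among those past the size rule that were also detected above 1 TPM in no less than 50% of cells in the higher group, which 254 higher and 163 lower genes were. After Rab3b, the higher genes were Depdc5 (fold 4.54), Thumpd3 (4.02), Gm22464 (4.02), Necab1 (4.01), Kif3c (3.96), Med21 (3.86), Bcap29 (3.70), Phrf1 (3.68) and Abhd16a (3.61). They were above 1 TPM in 11 to 15 of the 22 Pdyn-positive cells and in 2 to 8 of the Pdyn-negative cells. Kif3c, a kinesin motor subunit, was above 1 TPM in 7 of 8 and 2 of 9 cells on FACS051_5 and in 4 of 13 and 0 of 7 on FACS086_4, with up to 137 and 6.75 TPM. Depdc5, part of a complex that restrains mTORC1, reached 314 TPM in Pdyn-positive cells, but its median there was 0.890 TPM and on FACS051_5 its highest value was 6.79 TPM. With well D04 kept among the Pdyn-negative cells its fold was 2.64 (-1.30 on FACS051_5), which no longer met the size rule, and the folds of Thumpd3, Bcap29 and Phrf1 were 1.996, 2.497 and 2.29. With the highest cell of each group left out Thumpd3 had 0.46 on FACS051_5 and did not meet the rule, and without the cells with Drd1 below 10 TPM Abhd16a had a fold of 2.77. Med21, a Mediator subunit, had medians of 17.1 and 0.409 TPM.

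After Blvrb, the lower genes were Dab2ip (fold -4.71), Gm45090 (-4.35), Gm44242 (-3.67), Nsun5 (-3.63), Psmd9 (-3.61), Pot1a (-3.51), Zfp369 (-3.41), Atg10 (-3.27) and Gm24715 (-3.20). Dab2ip, a Ras GTPase activating protein, was above 1 TPM in 4 of 22 and 8 of 16 cells, with up to 19.8 TPM in Pdyn-positive and 545 TPM in Pdyn-negative cells. Psmd9, a proteasome assembly chaperone, was above 1 TPM in 7 of 22 and 12 of 16 cells. Pot1a, a telomere protein, was above 1 TPM in 10 of 22 and 8 of 16 cells, so its fold lay in the level of the highest cells and not in the number of cells. Without well C06 the fold of Atg10 was -0.81 and no longer met the size rule, that of Pot1a was -2.33 and that of Gm24715 -2.37. Atg10 also missed the rule among cells with at least 4000 genes (-0.98) and with the highest cell of each group left out (-1.22, and 0.47 on FACS086_4). All of these genes overlap another annotated gene apart from Gm22464, Bcap29, Abhd16a, Blvrb, Pot1a and Gm24715, and Gm22464 and Gm24715 are annotated as microRNA genes.

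Markers of other cell types had low summed medians in both groups apart from endothelial ones. Of 8 cholinergic interneuron markers 0 were compared, and their summed level was at most 1.78 TPM in a Pdyn-positive and 15.7 TPM in a Pdyn-negative cell, with Chat, the acetylcholine synthesising enzyme, above 1 TPM in 1 cell of each group. Astrocyte markers, of which 10 of 11 were listed, summed to 0 to 117 TPM (median 7.43) and 0 to 64.0 TPM (median 12.02), with Gja1 listed at 0 in the Pdyn-positive cells. Microglia markers, of which 4 of 9 were listed, summed to at most 271 and 8.10 TPM (medians 0.519 and 0.530). Interneuron markers other than cholinergic, of which 6 of 12 were listed, had medians of 0.223 and 0 TPM and maxima of 325 and 139 TPM, from Cck, and Sst and Pvalb were listed at 0 in all Pdyn-positive cells. Cortical excitatory markers, of which 5 of 7 were listed, summed to at most 147 and 20.8 TPM (medians 0.504 and 1.64). Oligodendrocyte markers, of which 7 of 11 were listed, moved with the groups. They summed to 0 to 188 TPM (median 8.66) in the Pdyn-positive and to 0 to 113 TPM (median 2.56) in the Pdyn-negative cells, Mbp was above 1 TPM in 12 of 22 and 3 of 16 cells, and Olig1 was listed at 0 throughout. The summed level of the 5 endothelial markers listed, of 8, had medians of 351 and 243 TPM, carried by Bsg and Pecam1, and Itm2a was higher past the size rule (5 of 22 and 2 of 16 cells above 1 TPM). Their part in the folds given above was not tested.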

How the data were processed

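Single cells were sorted by FACS from the dorsomedial striatum, cDNA was made with a SMARTer ultra low input kit, and libraries were sequenced. The authors deposited TPM per gene and cell. The submitters' processing notes name bcl2fastq 2.18, STAR 2.5.0, FastQC 0.11.5, featureCounts 1.5.1 and DESeq2 1.14.1 and the build mm10/GRCm38. How the TPM were made and whether counting used strand is not given in the sources used here.

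The table was used as deposited. Log2 folds were taken between group means of TPM with a pseudocount of 1 TPM, which understates the folds of low genes, over all kept cells and within plates. A minimum mean of 10 TPM was set. Shares are given with exact 95% Clopper-Pearson intervals, which hold for counting error alone. With 1 sample per group no test was made. Named genes were Pdyn, the 10 largest folds per direction past the size rule and above 1 TPM in at least 50% of the higher group, list members past the rule with the 2 highest of each list, and cell type markers. Rab3a, Rab3c, Rab3d and further members named for their role were chosen after their values were seen. Cells, groups and the 26 lists were chosen with earlier results of these data known. The steps were tested on simulated data. Of the listed names, 24024 matched GENCODE M21, which gave positions. Some genes are not reported here. Alternatives changed the pseudocount, mean, minimum, scaling and cells. The scripts ran under Python 3.11.15 with pandas 2.3.3, numpy 2.4.6 and scipy 1.17.1, and matplotlib 3.10.9 drew the plots.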

Additional observations from a re-analysis of the deposited data

Results flagged for a closer look

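In 6 of 15 groups of 4 to 10 cells, 1 cell stood apart from its group by Dixon's criterion. Chance meets it in about 1 in 20 groups where values are normally spread. Gene levels listed at 0 in many cells are not, so 6 of 15 cannot be read as an excess. Among the Pdyn-negative cells of FACS086_4, well A01 had 2806 genes found, against 5504 in the nearest cell, and well D03 had 0.40 for Rab3b on the log2(TPM + 1) scale while the others were listed at 0. Among the Pdyn-negative cells of FACS051_5, well B12 stood apart in Rab3b (1.97, nearest 0.99) and in Drd1 (2.33, nearest 6.67). Among the Pdyn-positive cells of FACS051_5, well A05 was low in Tac1 (1.63, nearest 7.80) and well B07 was low in Drd1 (0, nearest 6.06). The cell in well A05 held the highest Rab3b level of all kept cells, 773 TPM, with 2829 genes found and a TdTomato fluorescence of 1185, the lowest of the Pdyn-positive cells.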

How the results depend on the processing

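The labels hold nothing that pairs Pdyn-positive with Pdyn-negative cells, so the only pairing made was by genes found within plates. The counts of genes past the size rule, 705 higher and 383 lower, moved by over 1.5 times with a pseudocount of 10 TPM (381 and 179), no minimum mean (1185 and 852) and a minimum mean of 50 TPM (126 and 50). With the mean of log2 values 320 genes were higher, of which 180 were among the 705, and 289 were lower. With upper quartile scaling 606 genes were lower and 559 higher. The difference in median TdTomato fluorescence, 113 over all cells, was -542.5 on FACS051_5, -32.5 among cells with at least 4000 genes and -91.5 with Pdyn-positive cells taken above 10 TPM. With the highest cell of each group left out gene by gene, 404 of the 705 higher and 167 of the 383 lower genes remained. The cause was not tested. Among single genes named for a size, 517 of their values under the alternatives moved by less than the SD of the gene's folds on the 2 plates and 183 by more, and 0 changed sign over all cells. These genes had been chosen for folds of at least 1 with the same sign on both plates, so the lack of sign changes is no test of them. Depth is unknown, and 0 may be a transcript missed.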

Other observations

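The cells left out were both listed at 0 for Pdyn. On FACS051_5, that in well D04 showed 4838 genes found, 2.03 TPM of Drd1, 1.38 TPM of Tac1, 56.1 TPM of Penk and fluorescence values of 1001 for TdTomato and 213 for EGFP. The cell in well B02 of FACS086_4 had 648 genes found, was listed at 0 for Drd1 and had 0.871 TPM of Tac1, with fluorescence values of 1787 and 13.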
